A study of Mus musculus with 13 samples.

Results

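The baseline transcriptome of wild-type (WT) LK bone marrow progenitors was described from the 3 WT libraries of a mouse RNA sequencing series that holds 13 libraries in all. The members were the 3 libraries labelled WT, and the features described were all genes of the deposited table. LK cells are marrow cells sorted as negative for lineage antigens and for Sca-1 and positive for c-kit. The donors of the WT group carried both Tifab alleles and both miR-146a alleles (TIFAB+/+;miR146a+/+). Their marrow had been injected intravenously into syngeneic Boy/J recipients irradiated with 7.0 Gy and, 3 hours later, 4.75 Gy. The age given is 2 to 5 months and no drug or other treatment is named. So these are progenitors of an irradiated and transplanted animal, not of an unmanipulated one, and reads of donor and residual host cells were not separated. The protocol gives 3 mice per group, but no label ties a library to its own mouse, so an SD is the spread between libraries and may be partly technical. The other 10 libraries carry knockout genotypes and entered no value.

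LK cells hold the committed myeloid progenitors of the marrow: common myeloid, granulocyte-monocyte and megakaryocyte-erythroid progenitors, with early erythroid cells. The transcription factors PU.1 and C/EBP alpha drive the granulocyte and monocyte fate, and GATA1 with KLF1, TAL1 and NFE2 drives the erythroid and megakaryocyte fate. Granulocyte precursors fill their primary granules first, with myeloperoxidase and serine proteases, and make secondary and tertiary granule proteins only later.

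The WT libraries held 11993355, 9816110 and 9748244 recovered reads, and 15087, 15384 and 15242 of the 24062 rows had a read. Ribosomal RNA (the row Rn45s) took 7.66%, 9.09% and 4.20% of the reads. Values given as a set of 3 are those of WT replicates 1, 2 and 3, in that order. The deposited unit is log2 CPM, where CPM is the read count scaled to the library total. It compares libraries for the same gene. To compare genes with each other, the exon length was divided out, which gives log2 CPM per kilobase (per kb). A mean of at least 0 log2 CPM, or 1 CPM, was reached by 11845 rows, and 11729 of them had a length and were ranked per kb. A percentile is the share of these ranked genes with a lower level per kb. In a bulk sample, fewer cells of a type and less RNA per cell cannot be told apart.

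The ranked levels ran from -4.57 to 13.11 log2 CPM per kb, with a median of 2.54 and a 99th percentile of 8.09. Protein-coding genes made up 95.8% of the ranked genes. The highest row was the predicted gene Gm20594 at 13.11 per kb. Below it came B2m, the light chain of class I histocompatibility molecules, at 11.84 and Eef1a1, the elongation factor that brings aminoacyl-tRNA to the ribosome, at 11.47. Mpo, myeloperoxidase of the primary granules, was the 4th gene of the whole ranking at 11.32 per kb. Ribosomal protein genes among the 15 highest included Rps6, Rpl4, Rpl10, Rps29 and Rps3a1. Also among the 15 were Lars2, the mitochondrial leucyl-tRNA synthetase, Npm1, nucleophosmin of the nucleolus, the small RNA row Mir6236, Actb and the chaperone gene Hsp90ab1. Car1, carbonic anhydrase 1 of erythroid cells, followed as the 16th gene at 10.26 per kb. Mir6236 stood at a near constant -8.17, -8.22 and -8.22 log2 units from the ribosomal RNA row, so it moved with ribosomal RNA from library to library. Lars2 was at -1.85, -1.59 and -1.08 and Gm20594 at -4.35, -4.48 and -3.37 from that row, which is less constant. Lars2 took 2.12%, 3.02% and 1.99% of the reads, more than Mpo in each library. Whether all reads of Lars2 and Gm20594 came from their own transcripts was not tested.

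**Figure D1:**
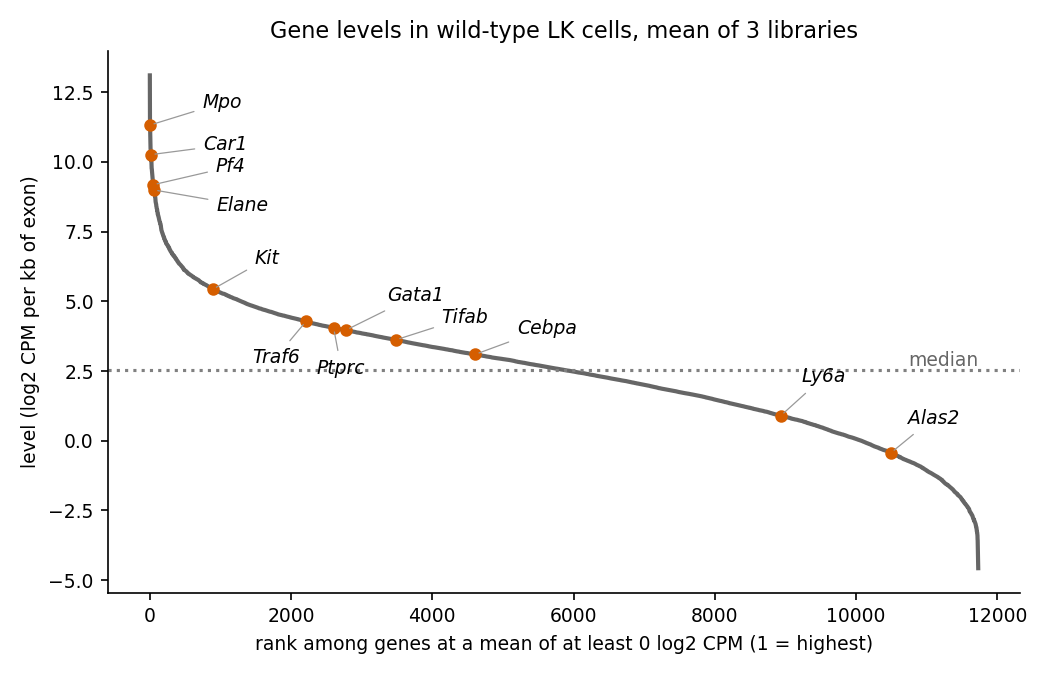
Level of the ranked genes in WT LK cells against their rank, as the mean of 3 libraries in log2 CPM per kb of exon; points mark named genes and the dotted line marks the median. Mpo and Car1 sit at the top of the curve, Kit, Traf6, Ptprc, Gata1, Tifab and Cebpa above the median, and Ly6a and Alas2 below it.

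The genes of the sort gate had the order of the gate. Kit, the stem cell factor receptor used for the positive selection (chr5:75574916-75656722), was at 8.68, 8.57 and 8.52 log2 CPM, and its mean per kb lay at percentile 92.4. Ly6a, which encodes Sca-1 (chr15:74994877-74998031), had 36, 16 and 21 reads, or 1.61, 0.75 and 1.14 log2 CPM, and lay at percentile 23.8. Kit was 386 ± 21.7 CPM and Ly6a 2.26 ± 0.692 CPM (SD, n = 3), and per kb Kit was at 5.43 and Ly6a at 0.90. Ptprc, the pan-leukocyte antigen CD45, was at 8.20, 8.30 and 8.23 log2 CPM. Kit and Ptprc differed little between the libraries, with SDs of 0.08 and 0.05 log2 units.

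Of the lineage antigens, 13 of 14 listed genes were measured and 5 reached 0 log2 CPM. Itgam, the integrin CD11b of myeloid cells, stood at 3.34 per kb, with 5.79, 5.77 and 5.43 log2 CPM. It lay above the median of the ranking, at percentile 65.3, and 11 of the 13 lay below percentile 10. Il7r, Cd4 and Cd5 were at -0.89, -1.03 and -1.70 per kb. The T cell genes Cd8a, Cd3d, Cd3e, Cd8b1 and Cd3g had means below 0 log2 CPM.

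Surface antigens that divide progenitors into subsets were well represented, and all 20 listed genes passed 0 log2 CPM. The list median was 4.76 per kb, at percentile 86.9. Cd24a was highest at 8.51 per kb, followed by Ly6e at 8.23, Cd48 at 6.93, Cd47 at 6.84, Cd44 at 6.83 and Cd93 at 6.63. Cd34, which separates common myeloid and granulocyte-monocyte progenitors from megakaryocyte-erythroid progenitors, was at 8.10, 7.97 and 7.46 log2 CPM and lay at percentile 88.8. Fcgr3, the Fc receptor CD16 of granulocyte-monocyte progenitors, was at 4.71, 4.36 and 3.74 log2 CPM. Cd34 and Fcgr3 were both highest in replicate 1 and lowest in replicate 3. Over the list, 11 of 20 genes were highest in replicate 1 and 14 of 20 lowest in replicate 3, where 31.2% and 27.4% of all rows at or above 0 log2 CPM were.

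Genes known from stem cells were present at lower levels. The 14 surface genes of that list had a median of 1.77 per kb, at percentile 36.5. Angpt1, a ligand of the Tie2 receptor, was highest at 5.82 per kb. Procr, the EPCR antigen of long-term stem cells, was at -0.29 per kb with 0.37, 0.75 and 1.07 log2 CPM. Slamf1, the antigen CD150, was at 1.60 per kb.

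Transcription factors of the erythroid and megakaryocyte fate stood higher in the ranking than those of the granulocyte and monocyte fate. The 20 erythroid and megakaryocyte factors had a median of 4.53 per kb (percentile 84.4), and 18 of them were above the median gene. The 16 granulocyte and monocyte factors had a median of 2.27 per kb (percentile 45.0), and 8 were above the median gene. Lmo2, a bridging subunit of the TAL1 and GATA complexes, led the first list at 7.06 per kb, with 8.11, 8.19 and 8.23 log2 CPM. Etv6 followed at 6.14, Klf1, the erythroid Kruppel factor, at 5.75, Fli1 at 5.46, Gata2 at 5.29 and Lyl1 at 5.16 per kb. Gata1 (chrX:7959260-7978071) was 15th in its list at 3.97 per kb, with 5.26, 4.86 and 5.64 log2 CPM. Gata2, which precedes Gata1 in this fate, had 7.57, 7.81 and 7.78 log2 CPM and was above Gata1 per kb.

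Among the granulocyte and monocyte factors the highest was Egr1, an immediate early factor also used in monocytes, at 7.96 per kb. Zeb2 stood at 5.25, Irf8, the monocyte and dendritic cell factor, at 4.77, Klf4 at 4.67, Spi1, which encodes PU.1, at 4.47 and Cebpg at 3.17 per kb. Cebpa had 4.79, 4.60 and 4.09 log2 CPM and a level of 3.10 per kb. Cebpe, needed for secondary granules, was at 0.46, 1.32 and 0.24 log2 CPM, or 0.36 per kb, and Cebpd and Cebpb lay as low at 0.33 and 0.05 per kb. The 3 late factors were thus below percentile 20, while Cebpa lay at percentile 60.7.

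The order of Spi1 and Gata1, whose proteins oppose each other in fate choice, differed between libraries. Spi1 was at 6.30, 5.90 and 5.51 log2 CPM. Per kb, Spi1 was higher than Gata1 by 0.90 and 0.89 in replicates 1 and 2, and the difference was -0.27 in replicate 3. The mean difference of 0.51 was therefore smaller than its SD of 0.68 (n = 3). The pair was picked after its values were seen. Cebpa was lower than Klf1 in each library, with differences of -2.03, -2.42 and -3.50 per kb.

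Factors shared by stem and early progenitor cells split into a high and a low part. Myc was at 7.42, Ikzf1, the factor Ikaros, at 7.02 and Myb at 6.97 per kb, all above percentile 97. Runx1 at 4.57 and Hhex at 4.42 per kb were lower. Hoxa9 was at 1.10, Hoxb4 at -0.33 and Mecom, a stem cell factor, at -0.49 per kb. Of the 20 listed genes 1, Nkx2-3, was below 0 log2 CPM. Lymphoid factors were near the floor, with a list median of -2.92 per kb (percentile 0.409, or 0.254 without replicate 1). Of 12, only Foxo1, Id3, Tcf7 and Pou2af1 passed 0 log2 CPM, and Pax5, the B cell commitment factor, had -2.26, -4.30 and -1.96 log2 CPM.

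Primary granule genes were the highest of the lineage lists. All 16 passed 0 log2 CPM and lay above the median gene, 11 of them in the top 10% of the ranking, and the list median of 6.31 per kb lay at percentile 96.3. Mpo (chr11:87793581-87804413) alone took 1.13%, 0.893% and 0.671% of the reads. Elane, neutrophil elastase, was at 9.79, 8.79 and 8.35 log2 CPM, and its level per kb lay at percentile 99.5. Ctsg, cathepsin G, was at 9.46, 8.82 and 8.53 log2 CPM and 8.89 per kb. Srgn, the proteoglycan serglycin that packs granule proteins, was at 8.91 per kb with 10.21, 9.93 and 9.99 log2 CPM. Calr, a chaperone of myeloperoxidase folding, followed at 8.14 and Nkg7 at 7.73 per kb. Mpo, Elane and Ctsg had the same order over the libraries, with replicate 1 highest and replicate 3 lowest.

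The promoters of these genes were read from the RefSeq table on GRCm38.p6, which matched 80.5% of the ranked genes. The window is the 250 bases before the RefSeq start, searched on both strands. A PU.1 site, spelled GAGGAAGT, was found in 4 of the 13 primary granule genes with a table entry (30.8%), against 2.44% of all 27025 promoters of the table and 2.64% of those of ranked genes. The Mpo and Elane promoters are shown because these 2 granule genes stand highest in the ranking and carry the motif outside the annotated gene. Bases that GENCODE counts to the gene are left off, and capitals mark the PU.1 site. The Mpo stretch is chr11:87793534-87793580 and the Elane stretch chr10:79886062-79886246, both on the plus strand.
Mpo: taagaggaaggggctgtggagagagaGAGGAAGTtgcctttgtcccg
Elane: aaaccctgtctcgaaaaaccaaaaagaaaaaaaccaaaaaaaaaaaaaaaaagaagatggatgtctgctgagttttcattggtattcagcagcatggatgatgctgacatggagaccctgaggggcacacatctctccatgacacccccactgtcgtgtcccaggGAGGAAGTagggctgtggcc
A match is a match of letters and not a measured binding site.

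Late granulocyte genes were far lower than primary granule genes. Of 19 measured, 11 passed 0 log2 CPM, and the list median was 0.58 per kb (percentile 19.9, or 30.4 without replicate 2). Lyz2, lysozyme, which is made early in both granulocytes and monocytes, was the exception at 6.52 per kb, with 7.53, 6.96 and 6.26 log2 CPM. Ncf1, a subunit of the phagocyte oxidase, followed at 4.72 per kb. S100a9 and S100a8, which form calprotectin, were at 4.28 and 4.01 per kb, Cxcr2, a chemokine receptor, at 3.15 and Cybb, the oxidase's catalytic subunit, at 1.92. S100a9 varied with 4.27, 1.77 and 3.98 log2 CPM, or 231, 33 and 153 reads. The tertiary granule gene Mmp9 and the secondary granule gene Ltf, lactoferrin, had means below 0 log2 CPM, at -4.66 and -3.31 per kb. Stfa2 was listed at 0 reads in each library, and Retnlg, Cd177 and Itgb2l were also below 0 log2 CPM.

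Mast cell, basophil and eosinophil genes were mixed, with 15 of 23 at or above 0 log2 CPM and a median of 2.26 per kb (percentile 44.8, or 29.7 with the median transcript length). Prg2, the major basic protein of eosinophil granules, was at 6.98 per kb, Cpa3, carboxypeptidase A3 of mast cells and basophils, at 6.78 and the chemokine gene Ccl3 at 6.67. Mcpt8, a basophil protease, was at 4.59 and Ms4a2, a chain of the high-affinity IgE receptor, at 4.45 per kb, while Gzmb stood at 4.02. Cpa3 was even over the libraries (7.44, 7.28 and 7.42 log2 CPM), and so was Mcpt8 (4.59, 4.58 and 4.59). Prg2 was not, at 8.03, 6.91 and 5.24 log2 CPM, or 3126, 1184 and 368 reads. Epx, eosinophil peroxidase, had the same order with 5.48, 5.12 and 3.72 log2 CPM, as had the basophil protease gene Prss34 with 3.87, 3.62 and 1.60. The mature mast cell proteases Mcpt4 and Tpsab1 were listed at 0 reads in each library, and Tpsb2 and Cma1 were below 0 log2 CPM.

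Erythroid membrane and transport genes ranged from near the top to near the bottom of the ranking. Of 27, 25 passed 0 log2 CPM, and the median of 3.35 per kb lay at percentile 65.6. Car1 (chr3:14766216-14808368) had 10.54, 10.43 and 10.79 log2 CPM, which is 1543 ± 203 CPM (SD, n = 3). Car2 was at 7.95, the urea transporter gene Slc14a1 at 6.82, the water channel gene Aqp1 at 6.51, Ermap at 5.71 and Tfrc, the transferrin receptor, at 5.37 per kb. Epor, the erythropoietin receptor, had 4.30, 4.21 and 4.83 log2 CPM and 3.45 per kb. Genes of the late red cell membrane were low: Slc4a1, the anion exchanger band 3, was at -0.19, -1.13 and -0.20 log2 CPM and Epb4.2, a membrane skeleton gene, at 0.37, 1.20 and 1.74. Sptb, a spectrin chain of that membrane, was at 0.05 per kb. Mpo exceeded Car1 per kb in each library, by 1.47, 1.24 and 0.47.

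Heme synthesis genes all passed 0 log2 CPM (12 of 12), with a median of 3.07 per kb (percentile 60.3). Tmem14c, a mitochondrial porphyrin transporter, was highest at 5.77 per kb, then Alad at 3.97, Urod at 3.80, Alas1 at 3.64, Cpox at 3.23 and Abcb10 at 3.09. The housekeeping first enzyme Alas1 was at 6.57, 6.29 and 5.93 log2 CPM, and the erythroid one, Alas2, at 1.03, 0.99 and 0.47. Per kb Alas1 lay at percentile 70.7 and Alas2 at percentile 10.5.

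Globin genes gave no value that can be read as a level. All 9 globin rows were listed at 0 reads in each of the 3 libraries, among them Hba-a1, Hba-a2, Hbb-bs and Hbb-bt. The ribosomal protein gene Rpl26, which every cell uses, was listed at 0 in each library too, and Rpl30, Rpl34, Rps27 and the glycolysis gene Eno1 were at 0.12, -0.47, -0.12 and -2.28 per kb, far under the medians of their lists. Of the 50-base stretches of each gene's longest transcript, 67.5% (Hba-a1), 86.9% (Hba-a2), 65.8% (Hbb-bs), 58.3% (Hbb-bt), 47.4% (Rpl26) and 72.2% (Eno1) also occurred in transcripts of other genes. The share was 0% for the embryonic globin genes Hba-x, Hbb-y and Hbb-bh1, 6.93% for Rpl34, 10.2% for Rpl30 and 27.6% for Rps27. Large shares also occurred in genes with high levels, such as Rpl36 (81.1%, at 9.76 per kb) and Rpl19 (79.3%, at 9.34 per kb). Of the ribosomal protein genes, the 65 with 10% to 90% shared had a median of 8.95 per kb. The 12 with under 10% shared had a median of 7.39 per kb. How far shared sequence set the 0 values was not tested.

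Megakaryocyte and platelet genes were mostly detected, with 24 of 26 at or above 0 log2 CPM and a median of 3.55 per kb (percentile 69.2). Pf4, platelet factor 4, was highest at 9.18 per kb, with 8.52, 8.77 and 8.85 log2 CPM. Plek, the protein kinase C substrate pleckstrin, was at 7.33 and F2r, the thrombin receptor PAR1, at 7.18 per kb. Rgs18 was at 5.93 and F2rl2, the thrombin receptor PAR3, at 5.26 per kb. Gp6, the collagen receptor, and Tubb1, the platelet tubulin, had means below 0 log2 CPM. Gp6 was at -0.68, -0.59 and 0.11 and Tubb1 at -0.68, 1.32 and -0.83 log2 CPM. The platelet gene Ppbp was higher, at 4.82, 4.57 and 5.74, so platelet genes were not low as a group. Pf4, Plek, F2r and Rgs18 were each highest in replicate 3 and lowest in replicate 1. Elane was above Pf4 per kb by 0.82 in replicate 1, and the difference was -0.43 and -0.95 in replicates 2 and 3.

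Cytokine receptor genes were all detected (30 of 30), with a median of 3.39 per kb (percentile 66.4). Ifngr1, an interferon gamma receptor chain, led at 6.39 per kb, and Kit, Tfrc, Cxcr4, the CXCL12 receptor, at 5.33 and Ifnar2 at 5.13 were also high. Csf3r, the G-CSF receptor, had 6.58, 6.67 and 5.90 log2 CPM and 4.53 per kb. Csf1r, the M-CSF receptor, had 6.68, 7.20 and 6.65 log2 CPM and 4.31 per kb. Csf2rb, the common beta chain, had 6.89, 6.78 and 5.84 log2 CPM, nearly equal in replicates 1 and 2 and lower in replicate 3. Il3ra and Il5ra, chains that pair with it, were low at -0.23 and -0.85 per kb.

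The innate immune pathway that the series was built around was unevenly filled. Toll-like receptors sense microbial products and signal through MyD88 and IRAK kinases to TRAF6, a ubiquitin ligase that activates the kinase TAK1 and NF-kB. Of 24 TLR and Myddosome genes 19 passed 0 log2 CPM, and their median of 1.29 per kb lay at percentile 29.1. The kinase gene Irak1 (7.36, 7.24 and 7.35 log2 CPM, 5.08 per kb) and Traf6 (7.08, 7.22 and 7.47 log2 CPM, 4.28 per kb) led, with Ticam1 at 3.65, Irak3 at 3.51, Ly96 at 2.77 and Irak4 at 2.68 per kb. The adaptor gene Myd88 had 3.72, 3.52 and 3.82 log2 CPM and 2.32 per kb. The receptors were lower than the relay: Tlr2 was the highest at 2.07 per kb, Tlr4 had 1.86, 3.20 and 2.97 log2 CPM, and Tlr3, Tlr8, Tlr11 and Tlr13 were at or below -1.89 per kb. Tlr5, the flagellin receptor, was lowest at -5.71 per kb.

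Genes of TIFA, TAK1 and ubiquitin handling were higher, with 20 of 20 at or above 0 log2 CPM and a median of 3.73 per kb (percentile 72.4). Tab2, a TAK1 binding subunit, was at 6.01, Tnfaip3, the deubiquitinase A20, at 5.90, Ube2v1 at 5.50, Usp7 at 5.36, Map3k7, which encodes TAK1, at 4.53 and the autophagy receptor gene Sqstm1 at 4.28 per kb. Tifab (chr13:56173704-56178885), which encodes an inhibitor of TRAF6 signalling, had 484, 485 and 386 reads, or 5.34, 5.63 and 5.31 log2 CPM. Its relative Tifa was at 4.73, 4.96 and 4.73 log2 CPM. Per kb Tifab was at 3.62 and Tifa at 3.13, and both were highest in replicate 2. Tifab lay at percentile 70.3, or 63.2 with the longest and 44.9 with the median transcript length, so its place above the median depended on the length used. The small RNA row Mir146, with an exon length of 65 bases, was listed at 0 reads in each library. This 0 gives no level of miR-146a, because recovery of small RNAs with the library method was not tested.

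NF-kB and IKK genes were all detected (16 of 16), with a median of 2.90 per kb (percentile 56.9). Nfkbia, the inhibitor I-kappa-B alpha, was highest at 5.54 per kb with 5.77, 6.45 and 6.47 log2 CPM, then Nfkbiz at 4.72, Rela, the p65 subunit, at 4.52, Nfkbib at 3.98, Rel at 3.80 and the kinase gene Tbk1 at 3.52. Relb, Bcl3 and Map3k14 of the alternative pathway were at 0.49, -0.01 and -0.45 per kb. Among inflammatory cytokines, 15 of 24 passed 0 log2 CPM, led by Ccl3, Ccl9 at 5.75, Tgfb1 at 4.74, Tnf at 4.17, Il12a at 4.04 and Ccl4 at 4.01 per kb. Tnf had 4.93, 5.02 and 4.70 log2 CPM. Il6 and Il1a had means below 0 log2 CPM, and Csf2 and Il12b were listed at 0 reads in each library.

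Receptor tyrosine kinase and JAK-STAT genes passed 0 log2 CPM in 35 of 36 cases and had a median of 3.81 per kb (percentile 73.6). Jak1 at 5.62, Nras at 5.41, Mapk3 at 4.91, Lyn at 4.87 and Grb2 at 4.86 per kb were among the highest. Jak2, a kinase of cytokine receptors, was even at 7.12, 7.13 and 7.28 log2 CPM. The feedback inhibitors Cish, Socs2 and Socs1, which STAT5 and other STATs induce, were low at 0.19, -2.26 and -3.85 per kb.

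Markers of other cell types that a sort could carry over were mostly low. B lineage genes had a median of -2.25 per kb (percentile 1.60, or 1.00 without replicate 3) with 6 of 19 at or above 0 log2 CPM, T and NK genes -1.03 (percentile 6.40) with 8 of 17, and stromal and endothelial genes -2.07 (percentile 2.04, or 4.40 with the longest transcript as length) with 11 of 20. The highest member of each was Cd37 at 3.94, Nkg7, which is also in the primary granule list, at 7.73, and Vim, vimentin, at 7.01 per kb. Dntt, the terminal transferase of lymphoid progenitors, was at 3.65 per kb, with 5.00, 4.64 and 4.91 log2 CPM, while Rag1, of antigen receptor rearrangement, was at -3.42 per kb. The collagen gene Col1a1 had -4.58, 2.04 and -2.70 log2 CPM, so its reads came nearly all from replicate 2, while Col3a1 was listed at 0 reads in each library. Macrophage, monocyte and dendritic genes passed 0 log2 CPM in 20 of 30 cases, with a median of -0.13 per kb (percentile 13.0, or 20.1 with the median transcript length). H2-Ab1 at 4.82, Cd68 at 4.81, Ly6c2 at 4.53, Ly86 at 4.34, Csf1r at 4.31 and Ctss at 4.21 per kb led that list, and the resident macrophage genes C1qa, Marco, Timd4 and Siglec1 were below -2 per kb.

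**Figure D2:**
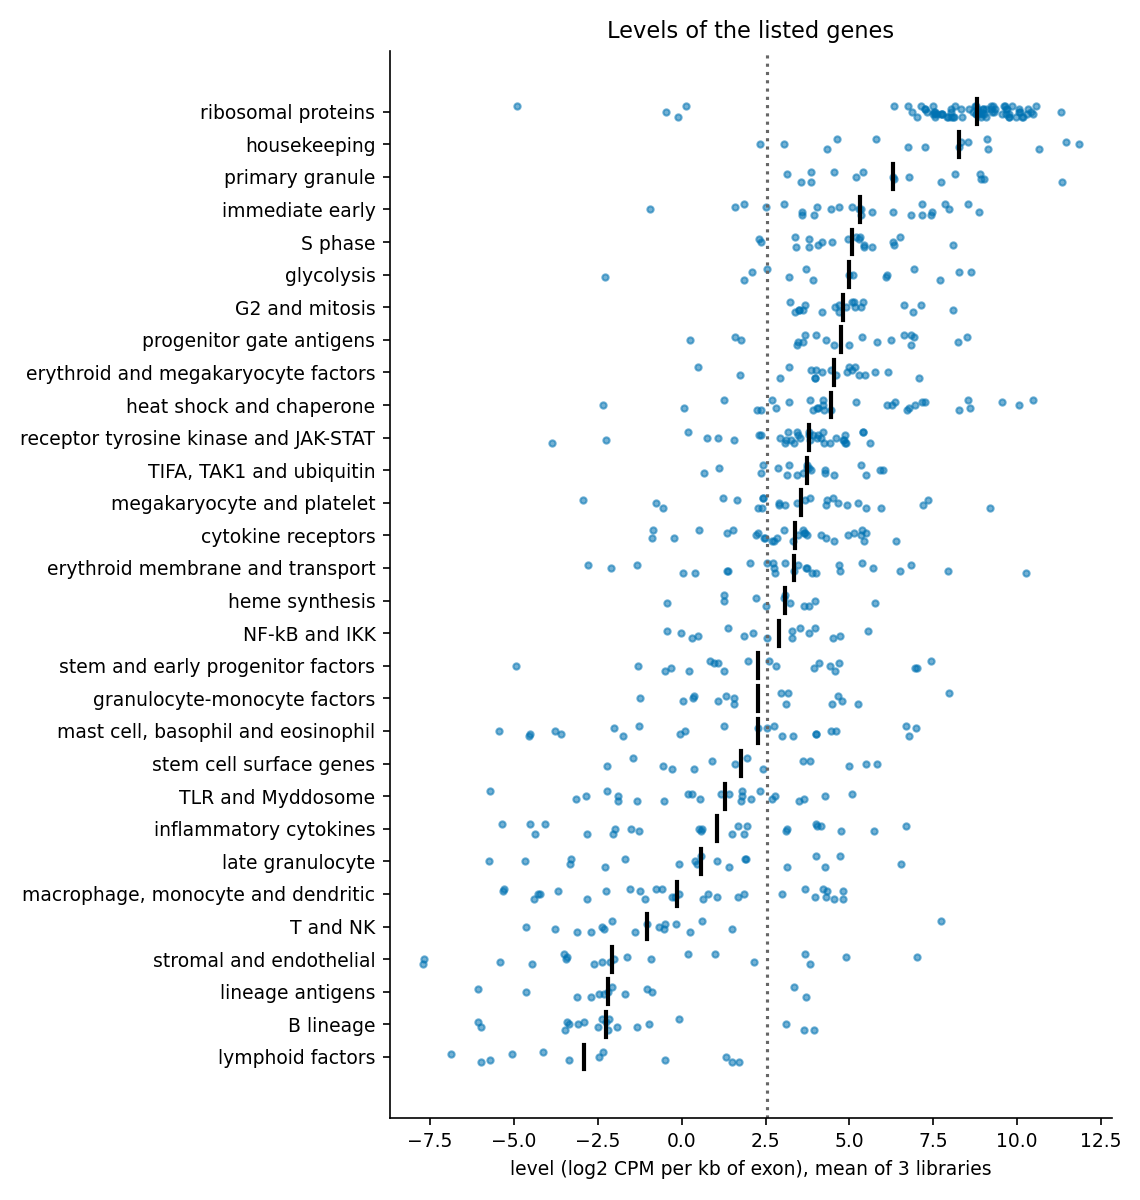
Level per kb (log2 CPM per kb of exon, mean of 3 WT libraries) of each gene in the lists, 1 row per list, with points for genes, black bars for list medians and a dotted line at the median of all ranked genes. Ribosomal protein, housekeeping and primary granule genes have the highest medians, and lymphoid factors, B lineage genes and lineage antigens the lowest of the lists plotted, which leave out the globin rows listed at 0 and the sort gate.

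Cell cycle genes were high throughout, with all 20 S phase and all 20 G2 and mitosis genes detected. The medians were 5.08 and 4.80 per kb (percentiles 89.5 and 87.2). Pcna, the polymerase clamp, was at 8.09, and the replication helicase genes Mcm6, Mcm3, Mcm4 and Mcm7 were at 6.50, 6.33, 6.30 and 5.68 per kb, with Dut at 5.45. Mki67, which encodes the Ki-67 antigen, was at 8.10, Ube2c at 7.14, Top2a, topoisomerase II alpha, at 6.88, Ccnb2 at 6.62, Kif11 at 5.40 and Aurkb at 5.34 per kb. Mki67 had 11.24, 11.19 and 11.85 log2 CPM, nearly equal in replicates 1 and 2 and higher in replicate 3.

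Ribosomal protein genes took 8.23%, 6.84% and 7.19% of the reads and had a median of 8.79 per kb (percentile 99.4). Of the 77, 73 were in the top 10% of the ranking. Glycolysis genes had a median of 4.98 per kb (percentile 88.9), led by Ldha, lactate dehydrogenase A, at 8.64, Gapdh at 8.27, Pgam1 at 7.70, Pgk1 at 6.93, Gpi1 at 6.11 and Aldoa at 6.09. Housekeeping genes were at a median of 8.27 per kb (percentile 99.1).

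Immediate early genes, which cells switch on within minutes of a stimulus such as dissociation or sorting, were high as well. Their median was 5.31 per kb (percentile 91.5, or 69.8 with the median transcript length). Of the genes, 26 of 26 passed 0 log2 CPM and 14 lay in the top 10% of the ranking. Klf6 was at 8.85, Jun at 8.53, Egr1 at 7.96, Dusp1 at 7.86, Zfp36 at 7.45, Myc at 7.42 and Fos at 7.18 per kb. Jun had 10.06, 10.27 and 10.30 log2 CPM and Fos 8.58, 8.34 and 8.31. Dusp1, a MAP kinase phosphatase, differed more, with 8.95, 9.50 and 10.30, and Atf3, a stress-induced factor, had 7.17, 8.42 and 8.24. Whether handling of the cells set these levels was not tested.

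The spread between the libraries was smaller at middle and high levels than at low levels, with the lowest pooled SD between 7 and 8 log2 CPM. Over the 11845 rows at or above 0 log2 CPM, the median SD was 0.23 log2 units and the pooled SD 0.36. Pearson's r across these rows was 0.977 for replicates 1 and 2, 0.971 for 1 and 3 and 0.979 for 2 and 3, where genes are not independent replicates. A difference of more than 2-fold was seen for 589, 804 and 545 rows in these pairs. Between 0 and 1 log2 CPM the pooled SD was 0.68, where counting of reads alone gives 0.39. Between 7 and 8 log2 CPM it was 0.20, against 0.034 from counting, so at high levels nearly all of the spread was beyond counting. Counting error covers read sampling only, since amplified reads are not independent molecules.

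**Figure D3:**
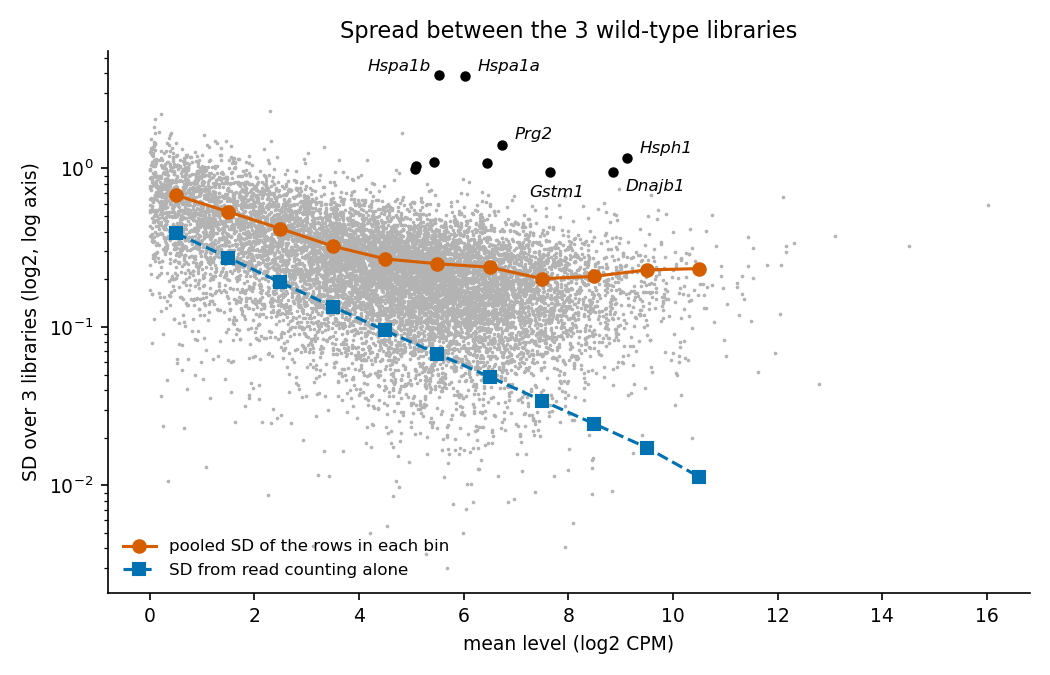
SD over the 3 WT libraries (log2 units, log axis) against the mean level (log2 CPM) for the rows at or above 0 log2 CPM; circles give the pooled SD and squares the SD from read counting in bins of 1 log2 unit, the last bin holding all rows from 10 up, and black points the 10 named genes with the largest SD from 5 log2 CPM up. Hspa1a and Hspa1b lie far above all other rows, and the pooled SD levels off near 0.20 to 0.23 at high levels while the counting SD goes on down.

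Among named genes from 5 log2 CPM up (5094), Utp14b, Mrpl16, Sf3b3 and Sidt2 were among those with the smallest SD. Sf3b3, a subunit of the splicing factor SF3B, had 7.95, 7.94 and 7.94 log2 CPM, and Mrpl16, a mitochondrial ribosomal protein gene, 5.28, 5.28 and 5.27. The 10 largest SD were those of Hspa1b, Hspa1a, Prg2, Hsph1, Rnasek, Coro1a, Ubb, Prss57, Gstm1 and Dnajb1. Coro1a, the actin-binding coronin 1A, had 7.55, 6.43 and 5.37 log2 CPM, and Gstm1, a glutathione transferase, 8.59, 7.67 and 6.69. Rnasek had 6.65, 5.15 and 4.50, Ubb, a ubiquitin gene, 6.14, 5.05 and 4.07 and Prss57, a granule serine protease, 6.13, 4.93 and 4.17. These 5 genes and Prg2 had the same order, replicate 1 highest and replicate 3 lowest.

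Replicate 1 stood apart most often and replicate 2 least. More than 2-fold above both other libraries were 11 genes in replicate 1, 0 in replicate 2 and 1 in replicate 3 (Adrbk2, with 5.51, 5.84 and 6.84 log2 CPM). More than 2-fold below both were 6 genes in replicate 1, 0 in replicate 2 and 3 in replicate 3. Farthest above both others were Rnasek, Prss57, Coro1a, Prg2 and Ubb in replicate 1, and Adrbk2, Vamp5, Klf2, Ppbp and Tmem230 in replicate 3. Ppbp, pro-platelet basic protein, had 4.82, 4.57 and 5.74 log2 CPM. Farthest below both others in replicate 1 were Hspa1a, Hspa1b, Hsph1 and Dnajb1. Farthest below both in replicate 3 were Prg2, Coro1a, Ly6c2, Ubb and Gstm1. Ly6c2, the Ly6C antigen of monocytes and their progenitors, had 6.79, 6.09 and 5.07 log2 CPM. In replicate 2 the farthest above were Hspa1b, Hspa1a, Zfand2a, Dnajb1 and Map3k2, and the farthest below were Rhag, Fam160b2, Nek1, Ndufs6 and Gpatch4, each by less than 2-fold. Rhag, a red cell membrane glycoprotein gene, had 5.46, 4.69 and 5.50.

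Several gene lists differed between the libraries. Of 16 primary granule genes 13 were highest in replicate 1, with median deviations from the 3-library mean of 0.34, -0.08 and -0.26 log2 units. Late granulocyte genes had deviations of 0.67, -0.01 and -0.31 (9 of 11 highest in replicate 1), and mast cell, basophil and eosinophil genes 0.54, 0.00 and -0.49 (12 of 15). Erythroid membrane and transport genes went the other way with -0.15, -0.11 and 0.25, and 22 of 25 were highest in replicate 3. Kel, a blood group antigen, had 4.44, 4.47 and 5.55 log2 CPM. Megakaryocyte and platelet genes had -0.11, -0.01 and 0.16, with 17 of 24 highest in replicate 3. For all rows at or above 0 log2 CPM the deviations were -0.03, -0.02 and 0.06, and 31.2%, 23.6% and 45.2% were highest in replicates 1, 2 and 3. Some genes are in more than 1 list, and no test stands behind these counts.

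In shares of reads, primary granule genes had 1.61%, 1.27% and 1.03%, and erythroid membrane and transport genes 0.384%, 0.385% and 0.474%. The ratio of these shares was 4.20, 3.30 and 2.17. Without Mpo and Car1 it was 2.05, 1.52 and 1.19, so the order did not rest on these 2 genes. Of the lineage factors, the erythroid and megakaryocyte list had deviations of -0.07, -0.03 and 0.07. The granulocyte and monocyte factors were at 0.10 in replicate 2 and -0.19 in replicate 3, where 11 of 16 were lowest. S phase genes were highest in replicate 3 in 17 of 20 cases and G2 and mitosis genes in 16 of 20, with deviations of -0.14, -0.07 and 0.17 for the latter. Ribosomal protein genes were highest in replicate 1 in 62 of 75 cases, with deviations of 0.20, -0.13 and -0.07.

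Depth and sequence composition differed with the libraries too. Replicate 1 was the deepest library and replicate 3 had the smallest share of ribosomal RNA. Genes from 5 log2 CPM up with a transcript GC content of 53.4% to 66.8%, the upper end of 5 equal groups, had median deviations of 0.04, -0.02 and -0.02, and those of 33.3% to 42.8%, the lower end, -0.06, -0.02 and 0.09. For transcripts of 123 to 2363 bases the deviations were 0.05, -0.08 and 0.04, and for those from 6080 bases up -0.08, -0.03 and 0.10. Median lengths were 1094 bases for ribosomal protein, 1220 for mast cell, basophil and eosinophil, 1374 for late granulocyte and 1816 for primary granule genes. They were 2606.5 for platelet, 2627 for erythroid membrane, 3193.5 for S phase and 3473.5 for G2 and mitosis genes. Inflammatory cytokine genes were short too, at 1639 bases, with deviations of -0.02, 0.13 and -0.09. The part of GC content and length in the deviations of the lists was not tested. Transcripts of Coro1a, Rnasek, Prss57, Elane, Prg2 and Ly6c2, highest in replicate 1, had a GC content of 58.0%, 57.3%, 54.1%, 57.4%, 52.9% and 48.3%. Those of Hspa1a, Hspa1b, Hsph1 and Dnajb1, lowest in replicate 1, had 58.9%, 58.1%, 47.3% and 52.7%.

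**Figure D4:**
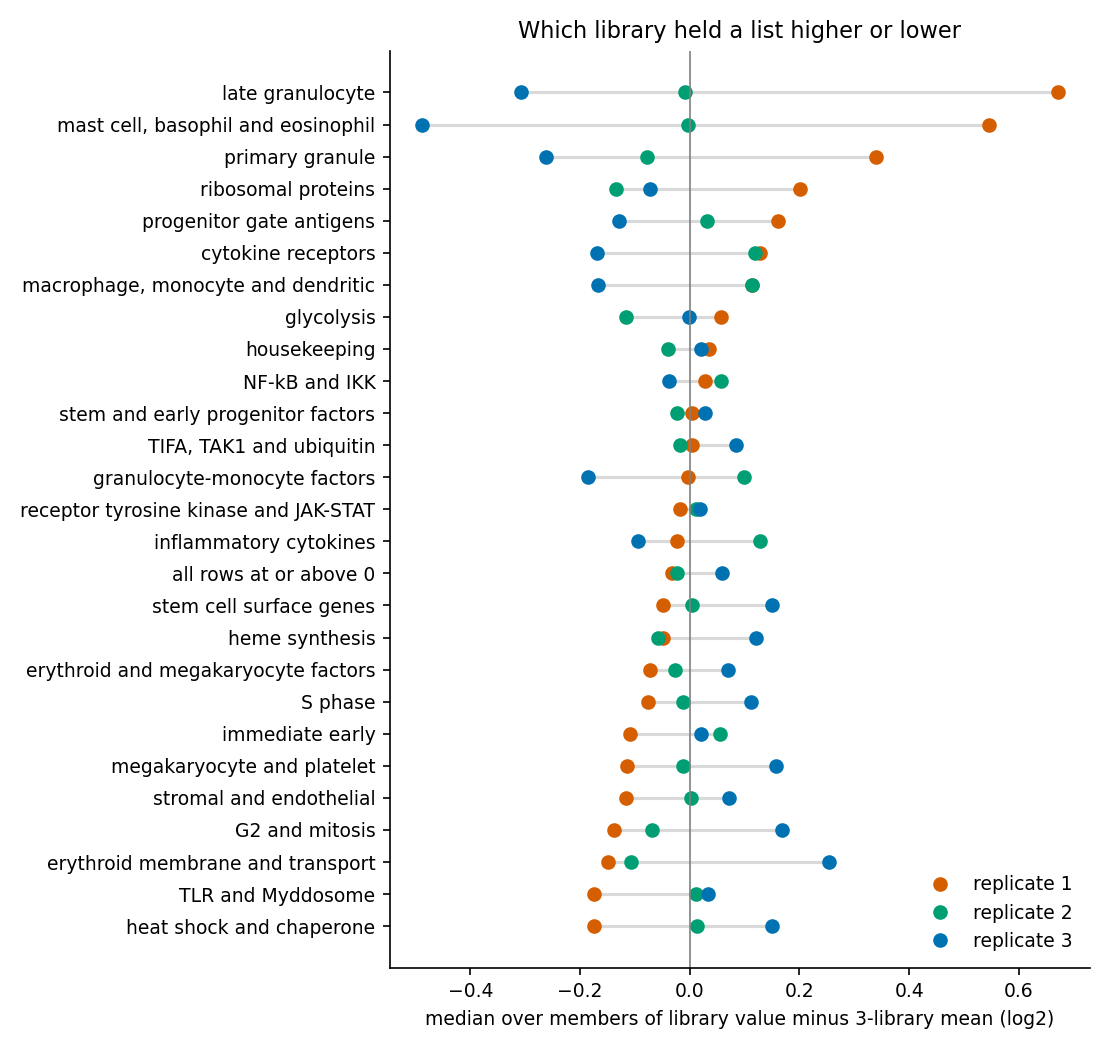
Median over the members of each list at or above 0 log2 CPM of the library value minus the 3-library mean (log2 units), with 1 point per WT library, for lists of at least 10 such members and for all rows. Replicate 1 lies highest for late granulocyte, mast cell, basophil and eosinophil, and primary granule genes, and replicate 3 for erythroid membrane and platelet genes.

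The largest difference between the WT libraries concerned heat shock genes. Hspa1a and Hspa1b encode the inducible HSP70 chaperone, which cells make under heat or protein stress through the factor HSF1. Hspa1a (chr17:34969190-34972156) had 36, 3949 and 2230 reads, or 1.61, 8.65 and 7.84 log2 CPM. Hspa1b (chr17:34956436-34959238) had 25, 2896 and 1508 reads, or 1.09, 8.20 and 7.27 log2 CPM. On the CPM scale Hspa1a was 134-fold higher in replicate 2 and 76.2-fold higher in replicate 3 than in replicate 1. The 2 genes are near-identical copies, with 60.3% and 62.3% of their 50-base stretches found in other transcripts, so reads could not be assigned between them with certainty.

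Other inducible chaperone genes were also lowest in replicate 1. Hsph1, HSP110, had 7.77, 9.90 and 9.69 log2 CPM, and Dnajb1, the HSP40 partner of HSP70, 7.84, 9.70 and 9.04. Hspb1, the small heat shock protein HSP27, had -0.19, 4.33 and 2.75, or 0.834, 20.1 and 6.67 CPM. Dnajb4 had 6.73, 7.74 and 7.59, Zfand2a 6.31, 7.65 and 6.96 and Dnaja4 1.09, 1.77 and 2.87. In a list of 31 heat shock and chaperone genes made after these values were seen, 21 of the 30 at or above 0 log2 CPM were lowest in replicate 1, against 40.3% of all rows. Constitutive members differed less: Hspa8 had 11.80, 12.29 and 12.42 log2 CPM, Hsp90ab1 11.98, 11.98 and 12.19 and Hspa9, the mitochondrial HSP70, 8.46, 8.45 and 8.47. Hspa5, the HSP70 of the endoplasmic reticulum, went the other way with 11.08, 10.50 and 10.30. What set the libraries apart was not tested, and the labels name no difference in handling.

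**Figure D5:**
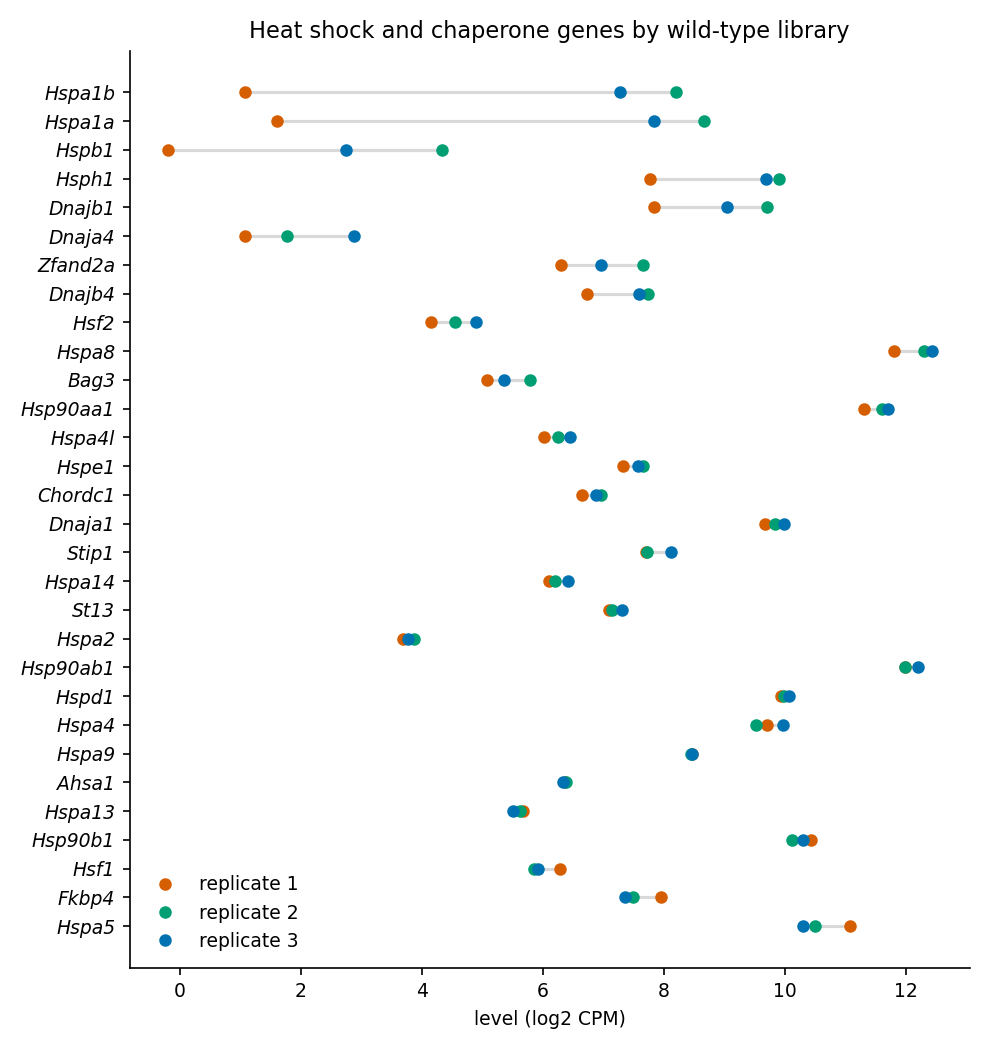
Level (log2 CPM) in each WT library of the 30 heat shock and chaperone genes at or above 0 log2 CPM, with the genes lowest in replicate 1 relative to the other libraries at the top. Hspa1b and Hspa1a have replicate 1 at 1.09 and 1.61 and the other libraries above 7, while Hspa9 and Ahsa1 have all 3 libraries together.

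A heat shock element, searched on both strands as GAANNTTC or TTCNNGAA (N is any base), was found in the promoter window of 5 of the 8 genes at or above 0 log2 CPM that were more than 0.5 log2 units lower in replicate 1 than in both others (Hspa1a, Hspa1b, Hsph1, Hspb1 and Zfand2a, but not Dnajb1, Dnajb4 and Dnaja4). It was found in 3 of 15 other heat shock and chaperone genes with a table entry (20%), in 12.9% of all promoters and in 10.3% of those of ranked genes. The heat shock element was not the only motif more frequent in these 8. The spelling CCACACCC was in 3 of the 8 genes (37.5%) and 0 of the 15 others. All promoters held it in 3.19% of cases and those of ranked genes in 3.47%. CCAAT was in 5 of the 8 (62.5%), 7 of the 15 others (46.7%) and 34.5% of all promoters. The windows of Hspa1a and Hspa1b differ at 3 of 250 bases, so they are not independent cases. Their sequences are shown since these genes have the largest differences, and that of Zfand2a as a further gene with the element outside the annotated gene, with the element in capitals. They are chr17:34972157-34972406, chr17:34959239-34959488 and chr5:139484550-139484741, all on the minus strand of GRCm38.p6.
Hspa1a: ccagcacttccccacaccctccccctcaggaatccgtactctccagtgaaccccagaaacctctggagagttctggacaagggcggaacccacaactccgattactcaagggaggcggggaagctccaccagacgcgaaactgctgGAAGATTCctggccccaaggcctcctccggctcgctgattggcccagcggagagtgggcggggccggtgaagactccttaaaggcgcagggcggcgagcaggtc
Hspa1b: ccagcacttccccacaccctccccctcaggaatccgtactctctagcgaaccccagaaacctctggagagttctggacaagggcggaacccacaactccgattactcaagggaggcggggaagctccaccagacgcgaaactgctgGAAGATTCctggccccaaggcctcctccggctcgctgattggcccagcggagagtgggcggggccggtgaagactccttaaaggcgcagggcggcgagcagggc
Zfand2a: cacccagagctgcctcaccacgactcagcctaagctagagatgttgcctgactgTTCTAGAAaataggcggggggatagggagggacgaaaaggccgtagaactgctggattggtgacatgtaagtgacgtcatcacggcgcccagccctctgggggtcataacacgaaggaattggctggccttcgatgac

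Promoter CpG content was higher in the upper groups of the ranking than in the lowest. It was low in the granule, platelet and erythroid membrane lists. The observed over expected CpG ratio of the 250-base window had a median of 0.575 in the lowest of 10 equal groups of ranked genes and 0.813 in the highest, and 0.258 in protein-coding rows under 0 log2 CPM. Primary granule genes, although at percentile 96.3 of the ranking, had a median ratio of 0.232 (13 of 16 genes with an entry), and 7.69% of them were above 0.6, against 78.8% of the highest group. Late granulocyte genes had a median of 0.125 (17 of 19) and mast cell, basophil and eosinophil genes 0.112 (21 of 23), where S phase genes had 0.797 (17 of 20). Megakaryocyte and platelet genes had a median of 0.168 (20 of 26), below that of primary granule genes. Erythroid membrane genes had 0.356, with an entry in only 17 of 27 cases. So low ratios were not particular to the granule lists. Late granulocyte windows held a C/EBP site, spelled TTGCNNAA, in 7 of 17 cases (41.2%), a GATA site, spelled AGATAA, in 4 (23.5%) and the PU.1 site in 3 (17.6%). Mast cell, basophil and eosinophil windows held the GATA site in 7 of 21 cases (33.3%), the C/EBP site in 5 (23.8%) and the PU.1 site in 0. Erythroid membrane windows held the GATA site in 6 of 17 cases (35.3%) and the C/EBP site in 2 (11.8%). For megakaryocyte and platelet windows these were 3 of 20 (15%) and 2 (10%). So the GATA site was not particular to the mast cell, basophil and eosinophil list. Primary granule windows held neither the C/EBP nor the GATA site in any of 13 cases. Of all promoters of the table, 9.55% held the C/EBP site and 10.3% the GATA site.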

How the data were processed

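Per the labels' protocols, total RNA of sorted LK cells went through Ovation v2 amplification, Nextera XT library construction and HiSeq2500 sequencing. The submitters' processing notes name TopHat, featureCounts, limma and mm10, without versions or a strand setting. Deposited values are log2 CPM with 0.5 read added per row and 1 per library total, from which whole reads came out to within 0.00251 read, and levels in CPM come from these. Exon lengths and positions came from GENCODE M21 on GRCm38 (mm10). Symbols matched for 98.2% of 24062 rows, 901 through an older symbol, and 27 rows carry a date in place of a symbol. Python 3.11.15, numpy 2.4.6 and pandas 2.3.3 were used, and the spread and gap measures were tested on simulated data.

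One group was described, so no test was run and no adjusted p is given. Genes were named by rule: the gate, marker and Tifab pathway genes, the 15 highest per kb, the 6 highest members of each of 31 lists and some members below 0 log2 CPM, the 10 largest and 5 smallest SD, and the 5 largest gaps per library and side from 5 log2 CPM up, leaving out unnamed loci, small RNAs and pseudogenes. Other genes in the text were picked after their values were seen. The WT libraries, lists and rules were chosen with earlier results of these data known. Added alternatives, the heat shock list and the gene pairs were chosen after seeing the data. In all, 7 motifs (also CCACACCC, TATAAA and CCAAT) were searched in 9 lists. Some genes that the rule picks are not reported here.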

Additional observations from a re-analysis of the deposited data

How the results depend on the processing

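No paired analysis was possible because only the WT group was described and no test was run. The count of genes at or above 0 log2 CPM stayed within 1.5 times of 11845 in all 6 alternatives tried. The median SD of 0.23 was 0.19 from 3 log2 CPM up and 0.19 with no filter, and ran from 0.17 to 0.21 when a library was left out. In order, the list percentiles of erythroid and megakaryocyte factors, granulocyte and monocyte factors, primary granule, erythroid membrane, megakaryocyte and platelet, and TLR and Myddosome genes were 76.9, 31.4, 93.6, 50.7, 57.9 and 24.1 with the median transcript length. They were 79.2, 27.4, 95.0, 54.2, 59.1 and 9.37 when ranked from 3 log2 CPM up, and 92.3, 72.5, 98.2, 82.9, 84.7 and 64.3 among all rows. With the longest transcript the platelet list was at 70.4 and the TLR list at 27.3. Leaving out a library gave 68.2 to 70.0 for the platelet list and 59.0 to 68.7 for the erythroid membrane list, and without replicate 1 the order of these 2 lists turned (68.2 and 68.7). The rankings from 3 log2 CPM up and among all rows hold fewer and more low genes by construction. The order of the 6 lists was otherwise as reported under the median transcript length and in both other rankings. B lineage genes were at percentile 0.972 and 0.699, lineage antigens at 0.989 and 2.75 and stromal genes at 4.40 and 4.43 with the longest and the median transcript length.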

Other observations

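The Y-linked genes Ddx3y, Eif2s3y, Kdm5d and Uty were present in each WT library, with 829, 628 and 752 reads of Ddx3y, and Uty at 5.09, 5.31 and 5.76 log2 CPM. Xist, the RNA of the inactive X chromosome, had 33, 23 and 54 reads and lay at percentile 1.18 of the ranking. Malat1, a nuclear long noncoding RNA, was at 11.56, 11.78 and 12.05 log2 CPM, highest in replicate 3.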
